A study of Homo sapiens with 38 samples.

Results

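Supermeres prepared by fast protein liquid chromatography (FPLC) were compared with supermeres prepared by serial ultracentrifugation (UC), both from conditioned medium of the human colorectal cancer cell line DiFi grown in a hollow-fibre bioreactor (3D culture). The members are the 7 libraries labelled FPLC supermere (A to D) and 3D UC supermere (A to C), of 38 small-RNA libraries in the series. 6 of them entered the comparison, because 3D UC supermere A holds 46 counts in all. The bioreactor medium was cleared by low-speed spins and a 0.22 µm filter, and 4 pools of about 400 mL were split into 60 mL aliquots for each purification. The UC supermere is the pellet of a 16 h spin at 367000 g of the supernatant left after the small-vesicle and exomere spins. The chromatography steps of the FPLC preparation are not given in the sources used here. RNA of every library was treated with a mix of wild-type and mutant AlkB, an enzyme that removes methyl groups which block reverse transcription. All material comes from 1 cell line, and no label ties a library letter to a medium pool, so p-values measure the spread between these libraries, which may be technical. The table's name carries a pair of numbers that may be sequencing projects. No label ties a library to either, so preparation and such a batch cannot be told apart.

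Supermeres are small extracellular particles without a membrane, which stay in solution when exomeres are spun down. Extracellular small RNA is largely made of pieces of longer RNAs. Ribosomal RNA (rRNA) builds the ribosome. Y RNAs are short hairpin RNAs bound by the Ro60 protein. Vault RNAs belong to the vault particle, a large hollow ribonucleoprotein of the cytoplasm. 7SK RNA holds the transcription elongation factor P-TEFb in an inactive complex in the nucleus. U12 and U11 are the small nuclear RNAs (snRNAs) of the minor spliceosome. MicroRNAs (miRNAs) guide Argonaute proteins to messenger RNAs through a short seed.

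The 4 FPLC libraries hold 1478602 to 12958289 counts and the UC libraries B and C hold 2071672 and 4137859. 3D UC supermere A has counts in 16 features, of which 31 counts are Y RNA (67.4%, Wilson 95% interval 52.97 to 79.1) and 4 are 28S rRNA. FPLC supermere D stands apart from FPLC A to C. The most abundant entry was 28S rRNA in A to C (90.6%, 63.9% and 64.9% of counts) and the U12 snRNA gene RNU12 in D (35.2%). In both UC libraries it was the Y RNA gene RNY1, at 45.3% in B and 51.9% in C. The cell line was checked against 9 miRNAs of intestine and epithelium. 8 of them had counts in each of the 6 libraries, and miR-31-5p was at 0 in all. Of 17 miRNAs of blood, endothelium, liver, mesenchyme and muscle, 3 to 6 had counts in an FPLC library and 4 and 5 in the UC libraries. They summed to 0.00623% to 0.0214% of miRNA counts in FPLC and to 0.0677% and 0.152% in UC. 6 were at 0 throughout, among them miR-144-3p, miR-150-5p, miR-145-5p and miR-133a-3p. Their part in the differences described here was not tested.

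FPLC supermere libraries A to C were mostly rRNA, FPLC D was led by snRNA, and both UC supermere libraries were mostly Y RNA. Ribosomal RNA made up 90.6%, 64.0%, 65.0% and 7.67% of counts in FPLC A to D, and 0.483% and 0.799% in UC B and C. Y RNA took 8.14%, 29.4%, 26.6% and 28.9% in FPLC, against 80.4% and 93.6% in UC. Neither class overlapped between the groups. Transfer RNA of the mitochondrion (mt-tRNA) was the third class without overlap. Its share was 0.00664%, 0.0118%, 0.00883% and 0.00433% in FPLC and 0.181% and 0.149% in UC, 20.9-fold higher in UC by the ratio of means. These are shares of sequenced counts: fewer particles that carry an RNA and less of it per particle cannot be told apart.

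**Figure D1:**
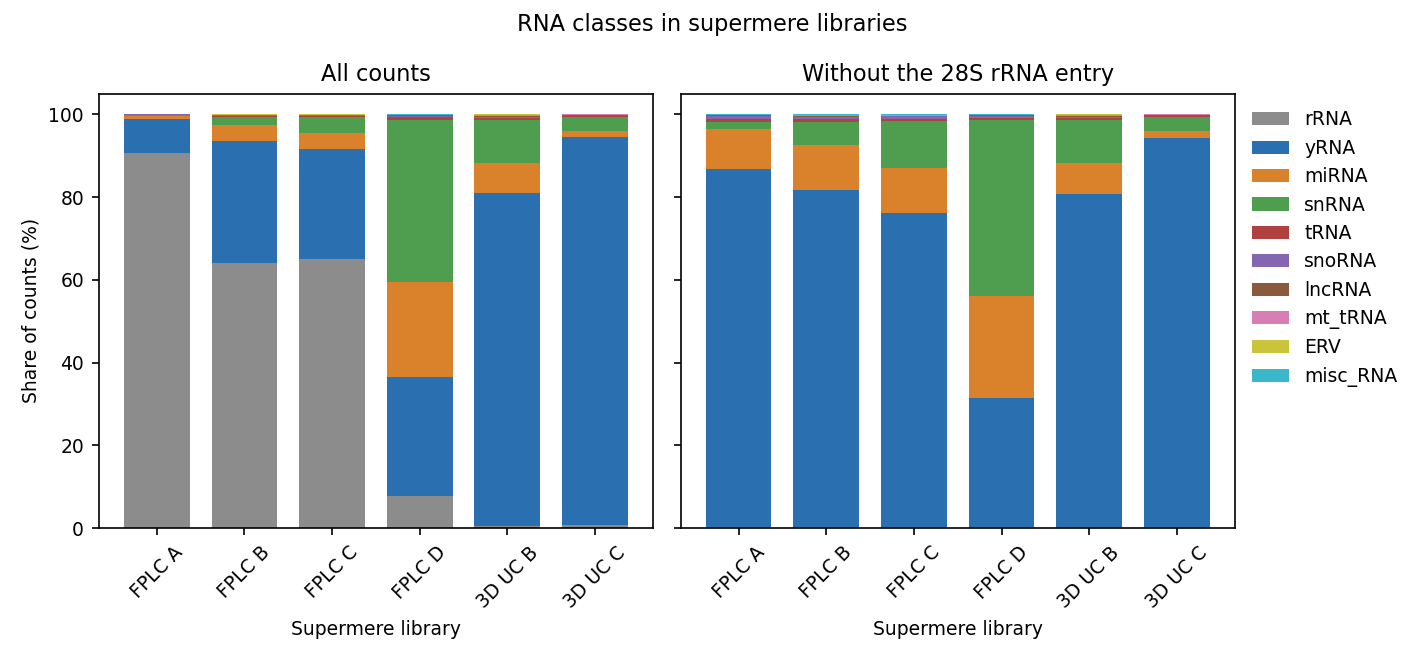
Stacked shares of counts held by each RNA class in the 6 libraries compared, in percent, with all counts (left) and without the 28S rRNA entry (right). On the left, ribosomal RNA fills 64.0% to 90.6% of FPLC A to C and Y RNA fills 80.4% and 93.6% of UC B and C, while FPLC D is led by snRNA (39.3%) and Y RNA (28.9%).

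The class shares were tested by an exact permutation test of the difference between means, two-sided, over the 15 ways to assign 4 and 2 libraries. Its smallest possible p is 0.0667, so no class could pass 0.05. Y RNA (23.3% ± 10.2, SD, n = 4, against 87.0% ± 9.31, n = 2) and mt-tRNA (0.00791% ± 0.00320 against 0.165% ± 0.0224) reached exact p = 0.0667, and p = 0.333 after adjustment over the 10 classes. For rRNA (56.8% ± 35.0 against 0.641% ± 0.224) the exact p was 0.200, adjusted 0.476, and without FPLC D its mean was 73.2% ± 15.1. The miRNA, snRNA, tRNA, snoRNA, lncRNA, misc_RNA (vault, 7SK-like and 7SL-like entries) and endogenous retrovirus (ERV) shares overlapped between the groups.

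With the 28S rRNA entry removed from every total, the Y RNA shares of FPLC A to C came to lie beside those of UC. They were 86.6%, 81.5% and 75.8% in FPLC A to C and 31.3% in D, against 80.7% and 94.1% in UC, and the groups then overlapped. Classes with no overlap on this base were miRNA, misc_RNA, snoRNA and cytosolic tRNA, all higher in FPLC, and mt-tRNA, lower in FPLC. The miRNA share was 9.59%, 10.8%, 10.9% and 24.7% in FPLC and 7.30% and 1.63% in UC. The misc_RNA share was 0.122%, 0.174%, 0.177% and 0.0976% against 0.0497% and 0.0115%, a ratio of 4.66. Small nucleolar RNA (snoRNA), which guides modification of rRNA, stood at 0.475% to 0.751% against 0.300% and 0.0553%, a ratio of 3.51. Cytosolic tRNA stood at 0.557% to 0.623% against 0.445% and 0.360%, a ratio of 1.45. The mt-tRNA share was still 4.98-fold higher in UC. For misc_RNA, snoRNA, tRNA and mt-tRNA the exact p was 0.0667, the smallest possible, and 0.167 after adjustment over the 10 classes. For miRNA, where FPLC D was the highest library, the exact p was 0.200, adjusted 0.333. The direction of the tRNA difference depended on the base: with 28S rRNA in the total its mean was lower in FPLC (0.248% against 0.401%).

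Feature by feature, few entries differed beyond the spread of the libraries, and those that did belong to a handful of RNA families. With trimmed-mean (TMM) scaling and edgeR's quasi-likelihood test, 19 of 8979 tested entries passed an adjusted p of 0.05 (0.212%), 9 higher in FPLC (0.1%) and 10 lower (0.111%). At an unadjusted p of 0.05, 737 entries passed. Of the 9 higher, 1 is rRNA, 6 are vault or 7SK-like RNAs of the misc_RNA class, 1 is 7SK itself and 1 is a Y RNA copy. Of the 10 lower, 8 are Y RNA copies, some of them with near-equal counts, 1 is a mitochondrial tRNA and 1 is a long non-coding RNA entry. The 6 values of the 2 groups did not overlap for 18 of the 19. These entries were picked by a test on the same values, so the missing overlap adds no support. The matching share over all tested entries is not given here. 3985 of the tested entries had 0 counts in all 6 libraries, and 1999 had counts in both groups.

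The balance of higher and lower calls moved with the scaling. Scaled to library totals, 7 entries were higher (0.078%) and 35 lower (0.39%), 0.468% in all. With totals that leave out 28S rRNA, 16 of 8292 were higher (0.193%) and 1 lower (0.0121%), 0.205% in all. With totals of each RNA class, which asks how a class is composed, 7 were higher (0.078%) and 17 lower (0.189%), 0.267% in all. DESeq2's size factors in edgeR (RLE) gave 11 higher (0.123%) and 35 lower (0.39%), 0.512% in all. With the 28S entry removed before TMM, 8 were higher (0.0965%) and 10 lower (0.121%), 0.217% in all. DESeq2 itself, which gave an adjusted p for 1830 entries, called 48 higher (2.62%) and 50 lower (2.73%), 5.36% in all. Over the 1999 entries with counts in both groups, the median log2 difference was 0.00 by TMM, -1.20 by library totals, 0.12 without 28S rRNA, -0.20 by class totals and -0.40 by RLE factors. The 9 entries called higher by TMM were higher under each of these scalings (28S rRNA itself has no value where it is removed). Not all of the 9 passed under each: 6 did with library totals, 5 with totals without 28S rRNA and 4 with class totals. RLE factors kept 6 of them, TMM after removal of 28S kept 8, and DESeq2 kept 8. The 10 called lower were lower under each, but 1 of them passed with totals without 28S rRNA and 0 with class totals. Without UC library C, 2 entries passed, 28S rRNA and mt-TS2. Without UC library B, 11 of the 19 passed, and the 7SK, vault and higher Y RNA entries did not.

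**Figure D2:**
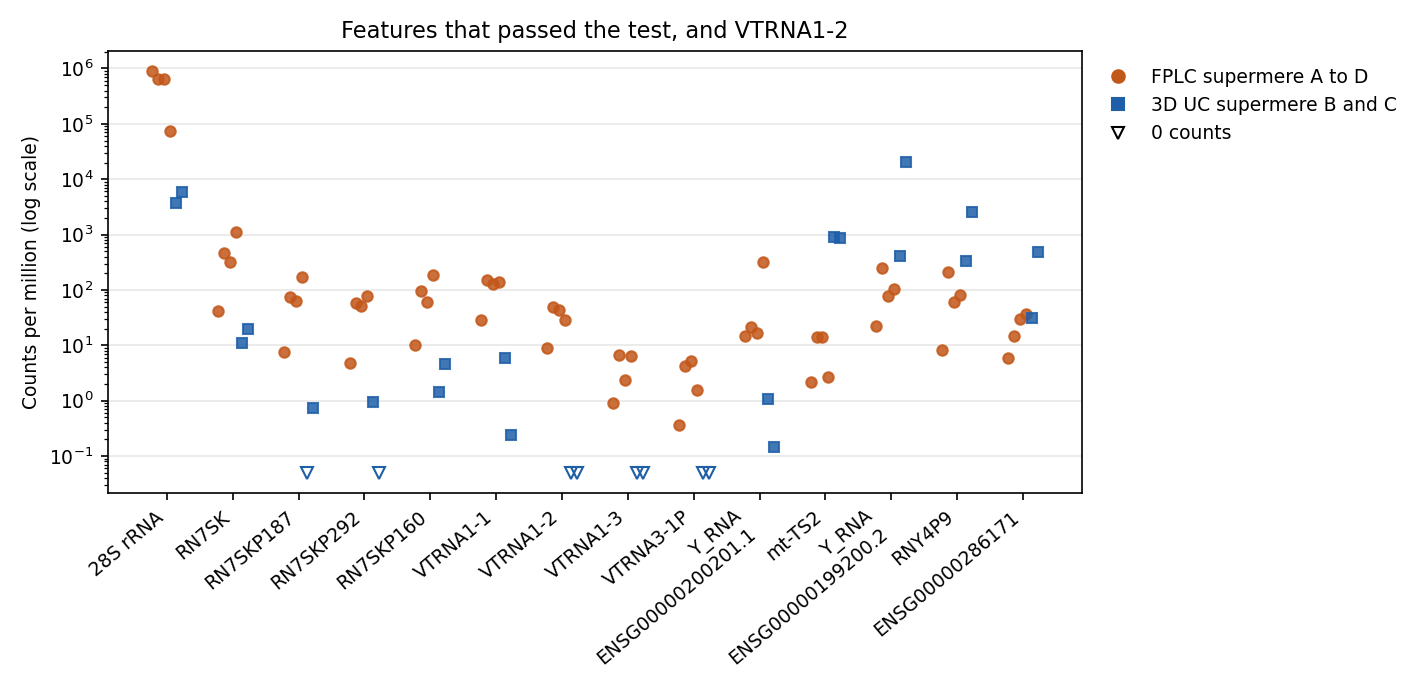
CPM, on a log axis, of 13 entries called between FPLC and UC supermeres and of VTRNA1-2, with 1 point per library (circles FPLC, squares UC, open triangles 0 counts). The 28S rRNA, vault and 7SK-like entries lie higher in all 4 FPLC libraries, and the lower Y RNA copies reach their highest values in UC library C.

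28S rRNA, the long rRNA of the large ribosomal subunit, counted on a reference entry of 5035 bases, showed the largest difference by count. Its level was 906017, 639005, 649014 and 74875 counts as a share of a library's counts scaled to 1000000 (CPM) in FPLC A to D, against 3725 and 5816 CPM in UC B and C. All 4 FPLC libraries lay above both UC libraries, and D was the lowest of the 4. The ratio of means was 119, and the log2 difference was 8.77 ± 1.07 (SE), edgeR adjusted p = 3.85e-12. It was 6.89 with library totals and 9.16 without FPLC D. In a fit of these 6 libraries alone the adjusted p was 0.0593. No other rRNA was called by TMM. 18S rRNA, of the small subunit, was at 159, 693, 621 and 1338 CPM in FPLC and 943 and 1994 CPM in UC, and these ranges overlapped. Within the rRNA class, 28S held 99.98%, 99.86%, 99.88% and 97.6% of counts in FPLC but 77.2% and 72.8% in UC. Since 28S nearly fills the class in FPLC, class totals push the other rRNAs down there by construction (median log2 -4.21 over the 17 rRNA entries), and nothing is read from them here. By TMM 18S stood at -0.42 (adjusted p = 1.00). Of 13 tested 5S and 5.8S entries 0 passed by TMM, with a median log2 difference of 1.47 by TMM and 0.81 by library totals.

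The 7SK RNA and some of the entries copied from it were called higher in the FPLC supermeres. The 7SK gene RN7SK (GRCh38 chr6:52995621-52995948, plus strand) was at 42.1, 465, 316 and 1123 CPM in FPLC A to D and at 11.1 and 19.3 CPM in UC B and C. The lowest FPLC library lay above the higher UC library. The log2 difference was 5.42 ± 1.21 (SE, adjusted p = 0.00876), and it passed under all of the scalings above. It no longer passed without UC library B (adjusted p = 0.427) or C (0.311). RN7SKP187 (chr7:112288623-112288952), a 7SK pseudogene, was at 7.56, 73.5, 63.3 and 172.5 CPM in FPLC and 0 and 0.725 CPM in UC. The FPLC mean over the CPM of the UC libraries pooled (3 counts) is a ratio of 164 with a counting interval of 56.1 to 795, and a log2 difference of 7.93 (adjusted p = 0.00192). RN7SKP292 (chr4:6997012-6997328) was at 4.76, 58.9, 52.0 and 77.3 CPM against 0.965 and 0 CPM (log2 8.03, adjusted p = 0.00267; ratio to the pooled UC libraries 150, interval 41.5 to 1237). RN7SKP160 (chr1:173791548-173791887) was at 10.1, 97.3, 59.8 and 186 CPM against 1.45 and 4.52 CPM (log2 5.27, adjusted p = 0.0383), and it failed in 13 of 16 other settings. FPLC A was the lowest of the 4 in each of these entries. Of the 42 7SK entries tested, 4 were higher and 0 lower, with a median log2 difference of 0.0 by TMM. Over all tested entries, 0.1% were called higher. Reads from 7SK can be shared with its pseudogenes, so the copies are not independent measurements.

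Vault RNAs were higher in FPLC as well, and several had no count in UC. The 3 vault RNA genes of chromosome 5 are shown because they carry this result. Capitals mark the first 29 and last 2 bases, which all 3 share, and the pairs are 81.8% to 87.6% identical.
VTRNA1-1: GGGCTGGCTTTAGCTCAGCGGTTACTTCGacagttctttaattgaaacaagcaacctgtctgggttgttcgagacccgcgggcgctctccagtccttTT
VTRNA1-2: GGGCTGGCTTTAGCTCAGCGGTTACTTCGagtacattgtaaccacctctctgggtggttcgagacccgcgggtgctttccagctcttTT
VTRNA1-3: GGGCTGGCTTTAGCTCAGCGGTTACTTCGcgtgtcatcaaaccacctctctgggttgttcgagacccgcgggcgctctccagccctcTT
They lie on the plus strand of GRCh38 at chr5:140711275-140711373, chr5:140718925-140719013 and chr5:140726158-140726246.

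VTRNA1-1 was at 28.4, 153, 128 and 138 CPM in FPLC A to D and at 5.79 and 0.242 CPM in UC B and C. Every FPLC library was above both UC libraries, by 37.1-fold on the means (log2 6.83 ± 1.48, SE, adjusted p = 0.0150). It made up 24.9%, 24.4%, 20.6% and 15.3% of the misc_RNA counts in FPLC and 1.17% and 0.212% in UC, so it also rose within its class (adjusted p = 4.21e-08). It did not pass with library totals (adjusted p = 0.0682) or with totals without 28S rRNA (0.177), nor without either UC library. VTRNA1-2 was at 8.78, 49.5, 43.1 and 28.6 CPM in FPLC and at 0 counts in both UC libraries. Against a floor of 3 counts over the UC group, 0.483 CPM, that is at least 67.2-fold higher. Its adjusted p was 0.196 by TMM, 0.000259 by library totals and 4.34e-09 by class totals. VTRNA1-3 was at 0.911, 6.63, 2.35 and 6.43 CPM against 0 in UC, at least 8.44-fold higher (adjusted p = 0.00876). The pseudogene VTRNA3-1P was at 0.370, 4.27, 5.23 and 1.56 CPM against 0, at least 5.91-fold higher (adjusted p = 0.0150). It failed in 8 of 16 other settings, among them totals without 28S rRNA (adjusted p = 0.289), class totals and RLE factors (0.0848). VTRNA1-3 failed in 4 of 16, among them class totals (0.0700). Of 4 vault RNAs tested, 3 rose, against 0.1% of all tested entries. The median log2 ratio of mean CPM of the 4 was 4.14 with the 3 genes at 0 in UC placed at their bound. On the same scale it was -1.19 over the 1999 tested entries with counts in both groups. Entries at 0 in UC are left out of those 1999 by definition. The medians thus come from unlike sets, and nothing is read from their difference.

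Mitochondrial tRNA held a smaller share in each FPLC library, and mt-TS2, the tRNA that reads AGC and AGU serine codons, was the called member. Its gene lies at chrM:12207-12265 on the plus strand and is shown whole, because this tRNA kept its call in 15 of 16 other settings.
mt-TS2: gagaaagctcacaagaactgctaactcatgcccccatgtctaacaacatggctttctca
It was at 2.16, 14.4, 14.3 and 2.71 CPM in FPLC A to D and at 890 and 877 CPM in UC B and C. Both UC libraries lay far above all FPLC libraries, and the mean was 105-fold higher there. The log2 difference was -5.51 ± 0.99 (SE, adjusted p = 0.00011). Within mt-tRNA it made up 3.26%, 12.2%, 16.2% and 6.25% of counts in FPLC and 49.2% and 58.7% in UC, and against class totals its log2 difference was -2.48 (adjusted p = 0.267).

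The other mitochondrial tRNAs did not pass by TMM. mt-TE, the tRNA for glutamate, was at 23.3, 33.2, 38.3 and 8.79 CPM in FPLC and 702 and 462 CPM in UC (log2 -2.75, adjusted p = 0.279). With library totals it passed, at -4.48 (adjusted p = 0.00225). mt-TC, the tRNA for cysteine, took 52.3%, 49.2%, 23.1% and 28.1% of mt-tRNA counts in FPLC and 3.20% and 1.17% in UC. These shares did not overlap, but the log2 difference of 4.13 against class totals had an adjusted p of 0.392. FPLC D holds few mt-tRNA counts, of which 18 are mt-TC, 13 mt-TE and 4 mt-TS2. Of 22 mt-tRNAs tested, 0 rose and 1 fell by TMM, with a median log2 difference of -1.90. Over all tested entries, 0.1% were called higher and 0.111% lower.

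Y RNA entries differed between the preparations in share and in how closely the RNY4 copies tracked RNY4. RNY1 and RNY4, 2 of the human Y RNA genes, lead the class, and 4 further entries start with the same bases as RNY4. Capitals in the RNY4-like entries mark the bases from the 5′ end that equal RNY4, and those of RNY4 mark the 30 bases shared by all 5. RNY1 is shown for comparison, in lower case.
RNY1: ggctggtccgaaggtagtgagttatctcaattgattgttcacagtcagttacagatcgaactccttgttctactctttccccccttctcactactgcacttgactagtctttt
RNY4: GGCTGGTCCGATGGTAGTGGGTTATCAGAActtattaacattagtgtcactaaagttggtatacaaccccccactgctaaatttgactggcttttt
RNY4P10: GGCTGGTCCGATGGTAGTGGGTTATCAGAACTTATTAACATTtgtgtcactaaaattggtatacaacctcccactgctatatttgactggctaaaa
Y_RNA ENSG00000201778.1: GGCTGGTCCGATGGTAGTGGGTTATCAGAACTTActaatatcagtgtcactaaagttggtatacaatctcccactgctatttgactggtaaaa
RNY4P7: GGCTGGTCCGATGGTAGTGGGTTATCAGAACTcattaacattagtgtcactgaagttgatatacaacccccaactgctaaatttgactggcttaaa
RNY4P20: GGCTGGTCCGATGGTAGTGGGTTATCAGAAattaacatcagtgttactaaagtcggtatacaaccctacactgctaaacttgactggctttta
Counted from the 5′ end of RNY4, the first differing position is A43T in RNY4P10, T35C in ENSG00000201778.1 and T33C in RNY4P7. RNY4P20 first differs at position 31, where the bases CTT of RNY4 are missing. It is 93 bases long, against 96 in RNY4. On GRCh38, RNY4 lies at chr7:148963315-148963410 (plus strand), RNY1 at chr7:148987136-148987248 (minus strand) and RNY4P20 at chr6:151298841-151298933 (minus strand).

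RNY1 was at 24155, 101356, 140778 and 105056 CPM in FPLC A to D and at 453348 and 519404 CPM in UC B and C. Both UC libraries lay above all FPLC libraries. The log2 difference was -1.40 by TMM (adjusted p = 0.592), -2.39 by library totals (adjusted p = 0.0208), -0.89 without 28S rRNA and -0.55 within Y RNA. RNY4 was at 11151, 37536, 23817 and 35275 CPM in FPLC and 77775 and 84451 CPM in UC. The ratio of RNY1 to RNY4 counts was 2.17, 2.70, 5.91 and 2.98 in FPLC and 5.83 and 6.15 in UC, so FPLC C resembled UC in this ratio. The 5 RNY4-like entries together held 68.7%, 62.2%, 44.7% and 61.0% of Y RNA counts in FPLC and 41.7% and 37.6% in UC.

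The RNY4 copies show that the FPLC libraries counted RNY4 and RNY4P20 almost alike, and the UC libraries did not. This ratio was chosen after the values were seen. RNY4P20 had 0.998, 0.865, 0.977 and 0.998 times the counts of RNY4 in FPLC A to D, but 0.292 and 0.161 times in UC B and C. The means were 0.960 ± 0.0640 (SD, n = 4) and 0.227 ± 0.0928 (n = 2), exact permutation p = 0.0667, the smallest possible. The other 3 copies, which share 32 to 42 bases with RNY4, had 0.999 to 1.02 times its counts in all 6 libraries. RNY4P20 shares 30 bases, the fewest, and is the entry whose ratio differed. The exomere libraries, made in the same 2 ways, showed the same split. The ratio was 0.860, 0.647, 0.877 and 0.914 in FPLC exomeres and 0.143, 0.135 and 0.0875 in 3D UC exomeres. Within Y RNA, RNY4P20 was higher in FPLC (log2 2.41 against class totals, adjusted p = 0.0403).

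**Figure D3:**
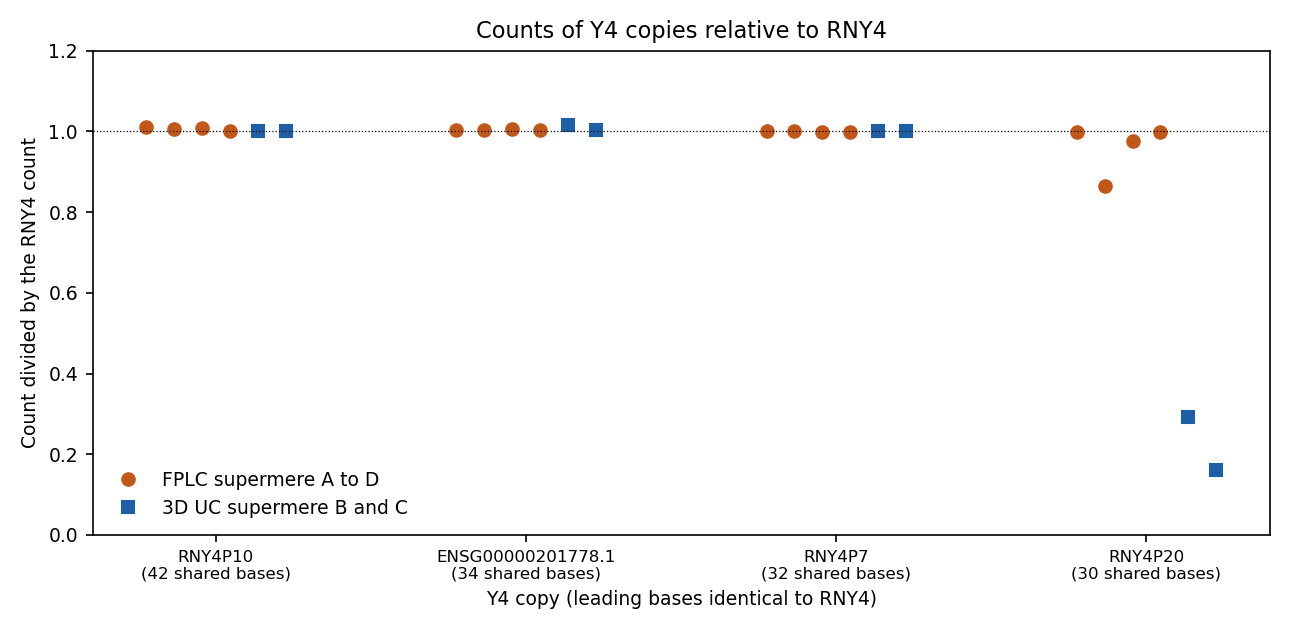
Counts of the RNY4-like entries relative to RNY4 in the supermere libraries. RNY4P20, which shares 30 bases with RNY4, stands at 0.865 to 0.998 in FPLC and at 0.292 and 0.161 in UC, while the other copies stay between 0.999 and 1.02.

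8 Y RNA copies were lower in FPLC by TMM, all with their highest value in UC library C. The Y_RNA entry ENSG00000199200.2 (chr10:34201979-34202074, minus strand), 86.5% identical to RNY4, was at 22.3, 253, 77.7 and 103 CPM in FPLC and at 406 and 20181 CPM in UC. Its log2 difference was -5.91 (adjusted p = 0.0314). Without UC library C it was -0.12. RNY4P9 was at 8.28, 212, 60.1 and 82.4 CPM in FPLC and 336 and 2569 CPM in UC (log2 -3.43, adjusted p = 0.0383), and at -0.26 without UC library C. The other 6, at 1.304 to 31.3 CPM in FPLC, 21.7 to 219 CPM in UC B and 411 to 952 CPM in UC C, stood at log2 differences of -3.88 to -5.04, and at -1.55 to 0.33 without UC library C. The calls for these 8 copies thus rested on UC library C. Some of the copies had near-equal counts. ENSG00000199476.1 and ENSG00000251803.1 had 0.001617 and 0.001619 times the RNY4 count in UC B, and 0.007523 and 0.007533 times in UC C. Such copies can share reads and are not independent measurements. 1 Y RNA copy went the other way. ENSG00000200201.1 (chr11:3665164-3665259, minus strand), 85.4% identical to RNY4, was at 14.8, 21.3, 16.99 and 321 CPM in FPLC and 1.06 and 0.145 CPM in UC. Its ratio to the pooled UC libraries was 208 (counting interval 68.7 to 1088) and its log2 difference 7.90 (adjusted p = 0.00267). It was called without FPLC D, at 6.98 (adjusted p = 0.0319), but not without UC library B (adjusted p = 0.190) or C (0.729).

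The long non-coding entry ENSG00000286171 (chr7:148941483-148941638, plus strand), within which RefSeq on GRCh38.p14 places the Y RNA gene RNY5, was the called entry whose groups overlapped. It was at 5.94, 14.6, 30.5 and 37.2 CPM in FPLC and at 30.9 and 487 CPM in UC (log2 -3.06, adjusted p = 0.0464). Without UC library C its log2 difference was 1.09. Of 291 Y RNA entries tested, 1 was higher and 8 lower by TMM, against 0.1% higher and 0.111% lower over all tested entries. The 8 lower calls rested on UC library C, and some of these copies can share reads.

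No single cytosolic tRNA was called between the preparations, and the make-up of tRNA in FPLC D stood apart from that in FPLC A to C. Each tRNA is counted over all its genes, and 1 gene of each of 4 tRNAs is shown, with the anticodon in capitals, because these 4 are among the most abundant tRNAs.
tRNA-Asp-GTC: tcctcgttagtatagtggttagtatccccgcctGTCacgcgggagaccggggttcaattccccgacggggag
tRNA-His-GTG: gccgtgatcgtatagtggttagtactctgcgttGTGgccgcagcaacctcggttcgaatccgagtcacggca
tRNA-Lys-TTT: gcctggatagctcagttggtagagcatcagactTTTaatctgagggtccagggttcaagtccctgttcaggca
tRNA-Ala-TGC: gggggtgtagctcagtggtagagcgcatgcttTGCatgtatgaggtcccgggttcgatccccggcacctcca
tRNA-Asp-GTC, which carries aspartate, held 25.2%, 24.9%, 24.5% and 10.1% of tRNA counts in FPLC and 3.96% and 9.96% in UC. The groups did not overlap, by the margin of FPLC D, and the log2 difference within tRNA was 1.60 (adjusted p = 0.370). tRNA-His-GTG, for histidine, held 16.7%, 16.7%, 18.2% and 1.04% against 0.881% and 7.48%. tRNA-Lys-TTT, for lysine, held 5.77%, 6.21%, 6.39% and 35.0% against 30.2% and 20.9%. tRNA-Ala-TGC, for alanine, held 1.28%, 0.582%, 0.708% and 4.80% against 15.6% and 5.17% (log2 -2.50 within tRNA, adjusted p = 0.0739). In all 4, FPLC D lay toward the UC values. FPLC A to C shared 90.6% to 94.3% of their tRNA composition pairwise. FPLC D shared 47.6% to 51.5% with A to C, 73.2% with UC B and 71.8% with UC C, and UC B and C shared 57.7% with each other. Of 49 tRNAs tested, 0 passed in either direction. The 4 tRNAs come from 13, 9, 12 and 8 genes.

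**Figure D4:**
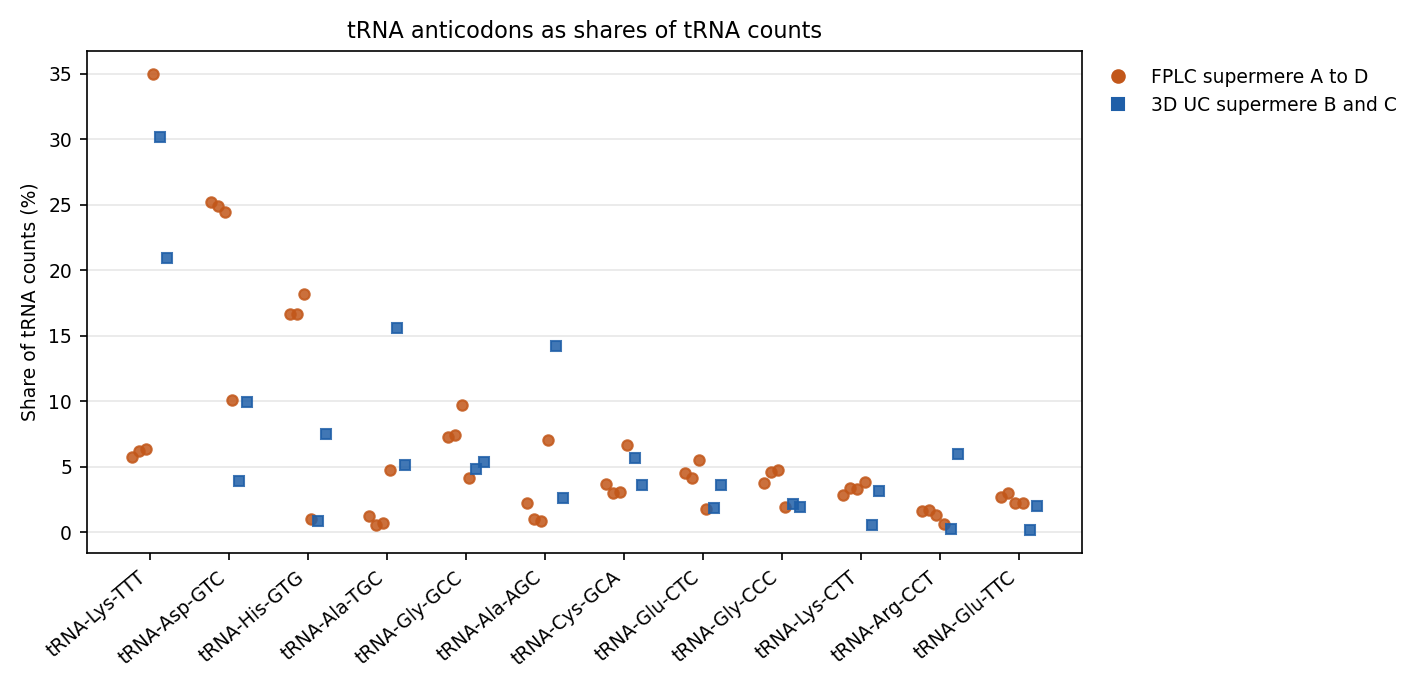
Share of tRNA counts held by the leading tRNAs in each of the 6 libraries, in percent. FPLC A to C look alike, with 24.5% to 25.2% tRNA-Asp-GTC, while FPLC D and UC B hold 35.0% and 30.2% tRNA-Lys-TTT.

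The snRNA class was led by RNU12 in 4 of the 6 libraries but varied widely between libraries of 1 preparation. RNU12, the U12 snRNA gene (chr22:42615244-42615393, plus strand), was at 211, 5565, 32119 and 352024 CPM in FPLC A to D and 63989 and 12229 CPM in UC. That is 12.99%, 27.4%, 80.1% and 89.6% of snRNA counts in FPLC and 61.6% and 37.5% in UC. FPLC D held the highest level and FPLC A the lowest, so the groups overlapped. RNU11, its partner in the minor spliceosome, held 26.9%, 16.4%, 4.90% and 1.80% against 2.43% and 45.2%. RNU5E-1, a U5 snRNA gene, held 0.533%, 1.008%, 0.475% and 0.104% of snRNA counts in FPLC and 2.74% and 5.39% in UC. These did not overlap. Its log2 difference was -2.94 within snRNA (adjusted p = 0.00264), -3.51 by library totals (adjusted p = 0.00763) and -2.77 by TMM (adjusted p = 0.210). Of 307 snRNA entries tested, 1 was higher by TMM, RN7SK.

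No miRNA was called by TMM among 577 tested, and miR-1246, which led the miRNAs in FPLC D and both UC libraries, matches a snRNA in sequence. In FPLC A to C miR-92a-3p led instead. miR-1246 is a miRNA often reported in extracellular particles. Its 19 bases lie at positions 94 to 112 of the U2 snRNA RNU2-1, in capitals, and in 9 of 1311 snRNA entries, all U2.
RNU2-1: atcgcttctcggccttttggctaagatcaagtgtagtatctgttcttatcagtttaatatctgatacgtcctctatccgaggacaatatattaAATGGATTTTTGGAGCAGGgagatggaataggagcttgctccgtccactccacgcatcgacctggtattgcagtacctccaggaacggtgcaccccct
miR-1246 was at 515, 3069, 7164 and 153464 CPM in FPLC A to D and 24813 and 3998 CPM in UC, or 5.71%, 7.89%, 18.8% and 67.3% of miRNA counts against 34.1% and 24.7%. Its log2 difference was 1.90 by TMM (adjusted p = 0.812) and -0.35 without FPLC D. RNU2-1 itself was at 311, 4081, 1738 and 11759 CPM in FPLC and 13040 and 1427 CPM in UC.

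The mature sequences of the miRNAs that lead the class or are named for their shares are given with the seed, bases 2 to 8, in capitals. 3 miR-29 genes share 1 seed and 3 miR-320 genes share another. All 16 printed miRNAs match RefSeq. miR-22-3p, miR-130b-3p and miR-423-5p were chosen after the values were seen.
hsa-miR-1246: aATGGATTtttggagcagg
hsa-miR-92a-3p: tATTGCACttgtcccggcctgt
hsa-miR-22-3p: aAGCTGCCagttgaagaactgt
hsa-miR-335-5p: tCAAGAGCaataacgaaaaatgt
hsa-miR-375-3p: tTTGTTCGttcggctcgcgtga
hsa-miR-10a-5p: tACCCTGTagatccgaatttgtg
hsa-miR-423-5p: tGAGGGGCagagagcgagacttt
hsa-miR-130b-3p: cAGTGCAAtgatgaaagggcat
hsa-miR-29a-3p: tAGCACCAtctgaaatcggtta
hsa-miR-29b-3p: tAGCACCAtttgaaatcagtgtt
hsa-miR-29c-3p: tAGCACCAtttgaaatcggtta
hsa-miR-320b: aAAAGCTGggttgagagggcaa
hsa-miR-320c: aAAAGCTGggttgagagggt
hsa-miR-320d: aAAAGCTGggttgagagga
hsa-miR-122-5p: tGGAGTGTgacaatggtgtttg
hsa-miR-192-5p: cTGACCTAtgaattgacagcc

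miR-92a-3p, a member of the miR-17-92 cluster, held 26.4%, 27.8%, 28.6% and 9.003% of miRNA counts in FPLC and 8.04% and 22.6% in UC. FPLC A to C lay above both UC libraries and D did not. miR-22-3p held 10.8%, 7.03%, 5.29% and 3.35% against 2.37% and 1.88%, without overlap. With totals that leave out 28S rRNA it was higher in FPLC (log2 2.97, adjusted p = 0.0351), and miR-130b-3p (1.52%, 0.975%, 1.44% and 1.498% against 0.477% and 0.334%) also passed there (adjusted p = 0.0456). Neither passed by TMM (adjusted p = 0.266 and 0.240), library totals (0.396 and 0.181) or class totals (0.414 and 0.461). Both passed with RLE factors (adjusted p = 0.0165 for each) and with DESeq2 (3.72e-05 and 5.05e-08). With totals that leave out 28S rRNA, miR-200b-3p, of the epithelial miR-200 family, passed at log2 2.86 (adjusted p = 0.0351). It too passed with RLE factors (0.0172) and DESeq2 (2.38e-05), and not by TMM (0.256). miR-10a-5p, a HOX-cluster miRNA, held 2.44%, 2.10%, 2.47% and 1.33% in FPLC and 5.08% and 3.17% in UC. miR-423-5p held 2.68%, 2.15%, 1.95% and 0.633% against 3.58% and 5.93%. Both shares were lower in each FPLC library than in each UC library. In CPM the groups overlapped for both miRNAs. miR-10a-5p stood at log2 -0.99 by class totals (edgeR adjusted p = 0.641) and at 0.37 by TMM.

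**Figure D5:**
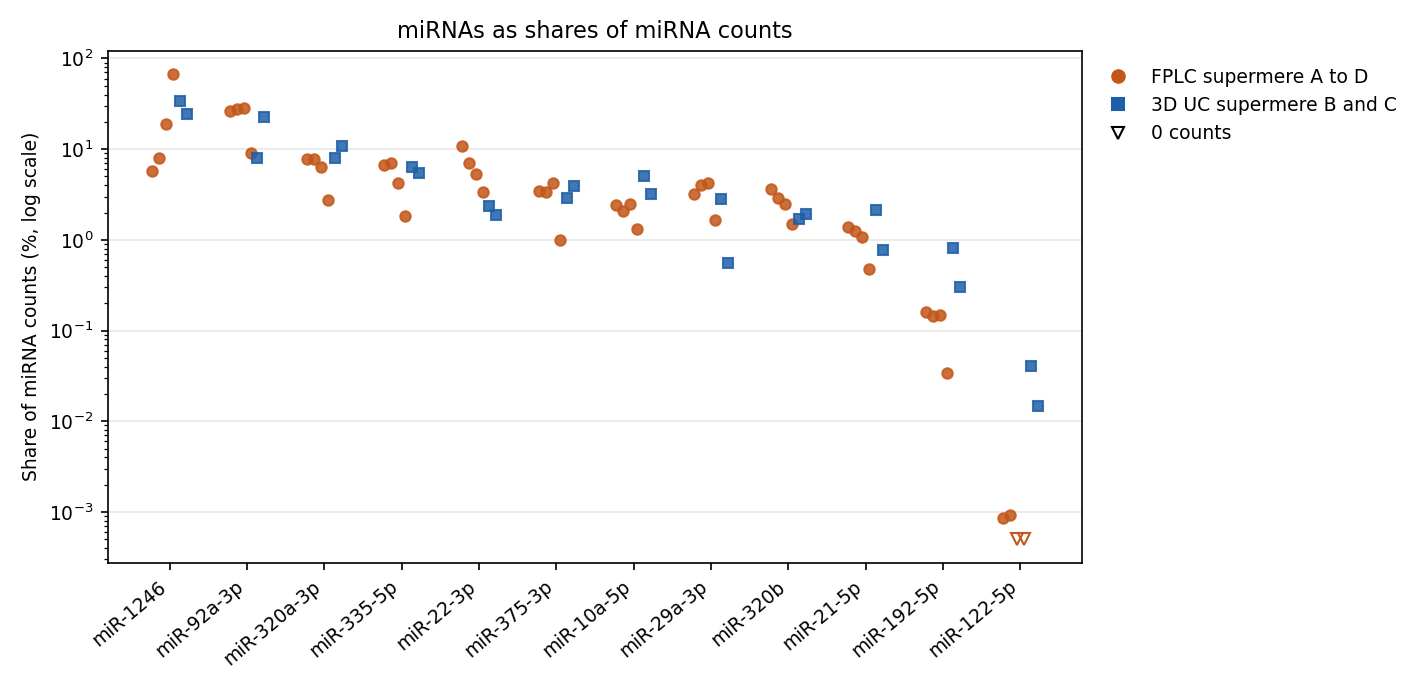
Share of miRNA counts held by the leading miRNAs in each of the 6 libraries, in percent. miR-1246 takes 67.3% of FPLC D and 34.1% of UC B, and miR-92a-3p takes 26.4% to 28.6% of FPLC A to C.

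miR-192-5p and miR-122-5p were lower in FPLC within the miRNA class. miR-192-5p, an intestinal epithelial miRNA, held 0.162%, 0.147%, 0.147% and 0.0343% against 0.812% and 0.302% (log2 -2.19, adjusted p = 0.0159), and by TMM it stood at -1.10 (adjusted p = 0.769). miR-122-5p, the chief miRNA of liver, was at 0.0772, 0.365, 0 and 0 CPM in FPLC and 29.9 and 2.42 CPM in UC (log2 -6.32 by class totals, adjusted p = 0.0133). FPLC C and D had no count of it. miR-100-5p was at 0 in all 6 libraries. By list, 0 of 18 let-7, 0 of 9 miR-200, 0 of 21 miR-17-92 and 0 of 26 miR-23 to miR-30 entries passed by TMM, with median log2 differences of 0.37, 1.40, 0.63 and 0.74 against 0.53 over all 577 miRNAs. Class totals put those medians at -0.17, -0.08, 0.00 and 0.00, against 0.00. FPLC D shared 38.3% to 51.2% of its miRNA composition with A to C, which shared 81.6% to 91.0% among themselves.

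The remaining classes held few calls. SNORD33, a C/D box snoRNA that guides rRNA methylation, held 80.7%, 61.5%, 62.9% and 60.8% of snoRNA counts in FPLC and 72.0% and 76.8% in UC. 0 of 156 C/D box and 0 of 97 H/ACA box snoRNAs passed by TMM. Of 96 7SL entries, RNA of the signal recognition particle and its copies, 0 passed by TMM and 2 were lower by class totals. 1 of these, the Metazoa_SRP entry ENSG00000283438.1, was at 1.16, 0.913, 0.920 and 13.5 CPM in FPLC and 229 and 9.91 CPM in UC (log2 -5.34 by class totals, adjusted p = 0.0201), so the groups overlapped. Of 807 ERV entries and 6455 lncRNA entries tested, 0 and 1 passed by TMM, with median log2 differences of 0.00.

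The difference between preparations was not the same in supermeres as in exomeres, the larger particles pelleted before them. FPLC exomeres (4 libraries) were compared with 3D UC exomeres (3 libraries), and the difference of the log2 differences was tested by an interaction term in edgeR. 45 of 8979 entries passed (0.501%), 15 with a more positive difference in supermeres (0.167%) and 30 with a more negative one (0.334%). Over the 1999 entries with counts in both supermere groups the median interaction was -0.67, and -3.19 with library totals. Library totals gave 465 calls, 5 with a more positive difference in supermeres and 460 with a more negative one. 28S rRNA was at 184998, 135168, 406422 and 268511 CPM in FPLC exomeres and 11622, 11736 and 19427 CPM in UC exomeres. It was higher in FPLC there too (log2 3.14, adjusted p = 0.000506), but the supermere difference exceeded it by 5.63 on the log2 scale (adjusted p = 0.00014), and by 2.77 with library totals (adjusted p = 0.0258).

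Entries are named here from the 15 of the 45 that average 50 CPM or more in at least 1 group. Below that level, mt-TF (interaction 13.43) and miR-4516 (8.67, adjusted p = 0.00484 for both) passed with larger positive values, and mt-TF is at 0 in UC supermeres. Among the entries with a more negative supermere difference, several were abundant in FPLC exomeres and near 0 in supermeres. SNHG20, a snoRNA host gene that overlaps SCARNA16 on its strand, was at 134, 255, 120 and 142.5 CPM in FPLC exomeres and at 0 in 3D UC exomeres, while it was at 0 to 1.56 CPM in FPLC supermeres and at 5.31 and 0 CPM in UC supermeres. Its interaction was -12.82 (adjusted p = 1.9e-06). Without UC supermere B, which held 11 counts of SNHG20, the interaction was -5.17. SNORD26, a C/D box snoRNA, was at 370 to 754 CPM in FPLC exomeres, 2.98 to 3.45 CPM in UC exomeres and 0.309 to 9.17 CPM in supermeres (interaction -6.28, adjusted p = 0.0032). ENSG00000259001 overlaps RPPH1, the RNA of ribonuclease P, on the same strand (chr14:20343048-20343685, minus strand). It was at 16439, 2432, 1939 and 1899 CPM in FPLC exomeres, 43.5, 20.9 and 37.7 CPM in UC exomeres and 14.3 to 55.6 CPM in supermeres (interaction -5.65). In supermeres the 3 entries had log2 differences of -0.23, -0.05 and 0.69 (adjusted p = 1.00 for each). UC exomeres are at 0 for SNHG20, so its fitted value depends on the prior count. Metazoa_SRP ENSG00000283438.1 (interaction -8.55) was at 0.471 to 21.2 CPM in FPLC exomeres and at 0 to 0.130 CPM in UC exomeres. Its interaction was -6.02 without UC supermere B. Y_RNA ENSG00000202078.1 (-6.58) was under 2 CPM in every supermere library, and its interaction was 0.31 without UC supermere C.

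The entries with a more positive supermere difference, beside 28S rRNA, include Y_RNA ENSG00000200201.1 (interaction 6.75, adjusted p = 0.0381), whose exomere difference was 1.15. miR-484 was lower in FPLC exomeres (220, 1429, 382 and 284 against 3442, 2890 and 1989 CPM) and overlapped in supermeres (93.5, 678, 325 and 207 against 397 and 235 CPM), an interaction of 4.95 (adjusted p = 0.0336). The U2 pseudogenes RNU2-59P and RNU2-68P gave 4.83 and 4.82 (adjusted p = 0.041 for both). These copies had near-equal counts in each supermere library (24.1 and 26.4 CPM in FPLC A, 1075 and 1068 CPM in UC B), so they are not independent measurements. The size of these positive interactions depended on the scaling. With library totals miR-484 stood at 2.30 and did not pass (adjusted p = 0.270). Y_RNA ENSG00000200201.1, RNU2-59P and RNU2-68P stood at 5.07, 2.55 and 2.52 there. Class totals gave 3.74 for miR-484, and 4.85, 3.27 and 3.31 for the other entries in that order. Leaving out 1 supermere library moved the count of interaction calls to between 7 (UC C) and 33 (FPLC A), and it was 9 without UC B and 18 without FPLC D.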

How the data were processed

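The deposited table gives expected counts per feature (6.71% of values are not whole, tolerance 1e-06), made by the authors from AlkB-treated, size-selected small-RNA libraries. Cutadapt 4.5, FastQC 0.12.1, Bowtie 1.3.1 and GRCh38.p13 are named per the submitters' processing notes. The counting tool, its annotation and its rule for reads with several matches are not given in the sources used here. Features that share sequence (Y RNA, U2, 7SK, tRNA copies) can therefore share reads.

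Rounded counts of 37 libraries in 11 groups were fitted with edgeR 4.0.16 in R 4.3.3 (TMM, robust quasi-likelihood, filterByExpr with a minimum count of 10, 26 residual degrees of freedom), which left 8979 of 22549 features and a common biological coefficient of variation of 1.2. Benjamini-Hochberg adjustment ran over all of them at a threshold of 0.05. 3D UC supermere A was left out. TMM factors were 0.0670, 0.219, 0.230 and 0.547 in FPLC A to D and 0.756 and 0.337 in UC B and C. A fold against UC libraries at 0 used a floor of 3 counts over the group. For 1 to 3 counts the ratio is the FPLC mean over the UC libraries pooled, with an exact 95% Poisson interval of the UC count. Intervals and floors cover counting error only. Shares within a class are percentages of that class's counts, and composition shared by a pair of libraries is the sum of the smaller of their shares.

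Features were named by rule: the largest called changes with a mean of at least 50 CPM (1 per family), the most abundant of each class, members of set lists, and the largest interactions that average 50 CPM or more in at least 1 group. Members and lists were chosen with earlier results of these data known. Sequences are from the deposited table or the GRCh38 genome with GENCODE v29 spans. Alternatives were other scalings, filters, DESeq2 1.42.0 and leaving out each library.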

Additional observations from a re-analysis of the deposited data

Results flagged for a closer look

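8 of the 10 values that lay far from the rest of the 4 FPLC libraries belong to FPLC D, out of 54 sets of 4 values checked. Chance alone flags about 1 in 20 such sets, and sets taken from 1 library are not independent. In FPLC D these were the miRNA share (22.8% of all counts, 24.65% without 28S rRNA), the snRNA share (39.27%), the share of miR-92a-3p among miRNAs (9.003%), the shares of tRNA-Lys-TTT (35.02%), tRNA-His-GTG (1.039%) and tRNA-Asp-GTC (10.09%) among tRNAs, and Y_RNA ENSG00000200201.1 (321.2 CPM). In FPLC A they were the Y RNA share (8.14%) and SNORD33 among snoRNAs (80.71%).

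For 10 named entries the difference between FPLC and UC in supermeres differed from that in exomeres by the interaction test. The interaction was more positive for Y_RNA ENSG00000200201.1 (6.75), 28S rRNA (5.63), miR-484 (4.95), RNU2-59P (4.83) and RNU2-68P (4.82). It was more negative for SNHG20 (-12.82), Metazoa_SRP ENSG00000283438.1 (-8.55), Y_RNA ENSG00000202078.1 (-6.58), SNORD26 (-6.28) and ENSG00000259001 (-5.65).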

How the results depend on the processing

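The 19 calls by TMM became 42 with library totals, 46 with RLE factors, 39 in a fit of the 6 libraries alone and 98 with DESeq2 (7149 features have no adjusted p there). Leaving out 1 library gave 2 to 18 calls, 2 without UC C and 18 without UC B, the lone UC library being assumed to vary like the other groups. Interaction calls rose from 45 to 465 with library totals and to 141 with class totals. Of the 465, 5 were more positive in supermeres and 460 more negative. With 1 FPLC supermere library left out, interaction calls ranged from 18 to 33. The groups share the letters B and C, which the labels do not tie to pools, and the B-minus-C differences correlate at 0.0921 over 1999 features. With the letter as a replicate block, 7 features were called.

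Without UC C, the log2 difference reversed for Y_RNA ENSG00000200998.1 (0.33; lowest with 1 library left out -4.88) and ENSG00000286171 (1.09; lowest -4.01), and the interaction for Y_RNA ENSG00000202078.1 (0.31; lowest -7.56). Differences in class share, FPLC minus UC in percentage points, reversed for lncRNA (0.00483) and tRNA (0.182) without 28S rRNA, for miRNA (-1.58), snRNA (-4.76) and snoRNA (-0.00234) without FPLC D, for snoRNA without UC C (-0.0582), and for ERV without UC B (0.0076). At the other end, leaving out 1 library gave 6.23 for miRNA, 8.27 for snRNA, 0.186 for snoRNA and -0.127 for ERV. The cause was not tested. Depth limits FPLC D most, where 3 counts are 2.03 CPM.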
